A study of Homo sapiens with 6 samples.

Results

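The FOXO factors are forkhead transcription factors at the end of the insulin and growth factor pathway. When phosphoinositide 3-kinase (PI3K) activates the kinase AKT, AKT phosphorylates FOXO proteins and they are held in the cytoplasm; when the pathway is weak they enter the nucleus and switch on genes for cell cycle exit, fuel choice, autophagy and stress defence. Several of their targets feed back on the same pathway, among them IRS2, PIK3IP1 and the sestrins. RNA levels do not show where FOXO proteins sit in the cell, and only RNA was measured here.

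The group described has 10 genes, picked by name: FOXO1, FOXO3 and FOXO4, the feedback genes PIK3IP1 and IRS2, the sestrins SESN1 and SESN3, and the targets CCNG2, PDK4 and BCL6. They were 10 of the 58735 genes in the deposited tables, and all 10 were among the 15881 genes that passed the filter on low counts. The genes were proposed with the differences between the sorted fractions already known, so for these 10 that difference is described and not tested.

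The libraries came from MDA-MB-231, an established human triple-negative breast cancer line of genotype WT, grown in serum-containing medium. Cells were stained with the membrane dye PKH26, which is diluted at each division, and chased for 12 days. The brightest 1% formed the slow-cycling cells (SCC, PKH26hi), and cells called moderate in the protocol but PKH26lo in the sample characteristics formed the rapid-cycling cells (RCC). Each fraction has 3 libraries described as biological replicates, which differ in no treatment other than the sort; whether replicates came from separate stainings is not stated, so the spread between them may be partly technical.

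Library totals were 17655855 to 27831824 counts. The 8 markers expected to be high in this line, among them VIM, CD44, EGFR and AXL, summed to 4170 to 4310 CPM (counts scaled to the library total) in SCC and 4030 to 4190 CPM in RCC, whereas ESR1 had at most 16 counts and PGR at most 3. Of the other markers expected to be low, ERBB2, the HER2 gene, had 1314 to 2868 counts, GATA3 140 to 276, EPCAM 75 to 132 and CDH1 0 to 10. The 12 leukocyte markers summed to 2.25 to 5.16 CPM in SCC and 1.91 to 2.80 in RCC, and 7 of the 12 stayed under 10 counts in every library. The 9 fibroblast and endothelial markers summed to 27.7 to 32.5 CPM in SCC and 22.6 to 26.6 in RCC. Of these, COL1A1 had 158 to 435 counts and PDGFRB 202 to 328, and 4 of the 9 stayed under 10 counts in every library. SCC replicate 1 stood apart: in the decile of tested genes richest in G and C the median log2 deviation of this library from the 6-library mean reached 0.38, and in the poorest decile -0.23, whereas the other libraries lay between -0.15 and 0.10.

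PDK4 and IRS2 differed most clearly between the fractions, and the FOXO genes themselves differed less. FPKM are fragments scaled to gene length and to a library size that was 0.9835 to 1.0200 times the count total. Here and below, the value after ± is the SD over the 3 libraries of a fraction (n = 3). In RCC, FOXO3 had the highest level per gene length of the 10 genes, at 5.16 ± 0.189 FPKM. IRS2 followed at 2.76 ± 0.0653 FPKM, CCNG2 at 2.33 ± 0.0291, BCL6 at 2.17 ± 0.0524 and FOXO1 at 2.04 ± 0.157. The lower levels were 1.87 ± 0.0339 FPKM for SESN3, 1.71 ± 0.173 for SESN1, 1.16 ± 0.0819 for FOXO4, 0.673 ± 0.0298 for PDK4 and 0.308 ± 0.0649 for PIK3IP1. Neighbours in this order whose RCC libraries overlapped were BCL6 and FOXO1, and SESN3 and SESN1. In SCC the level of PDK4 was 2.14 ± 0.386 FPKM, between FOXO1 at 2.28 ± 0.286 and SESN3 at 1.91 ± 0.0120.

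**Figure D1:**
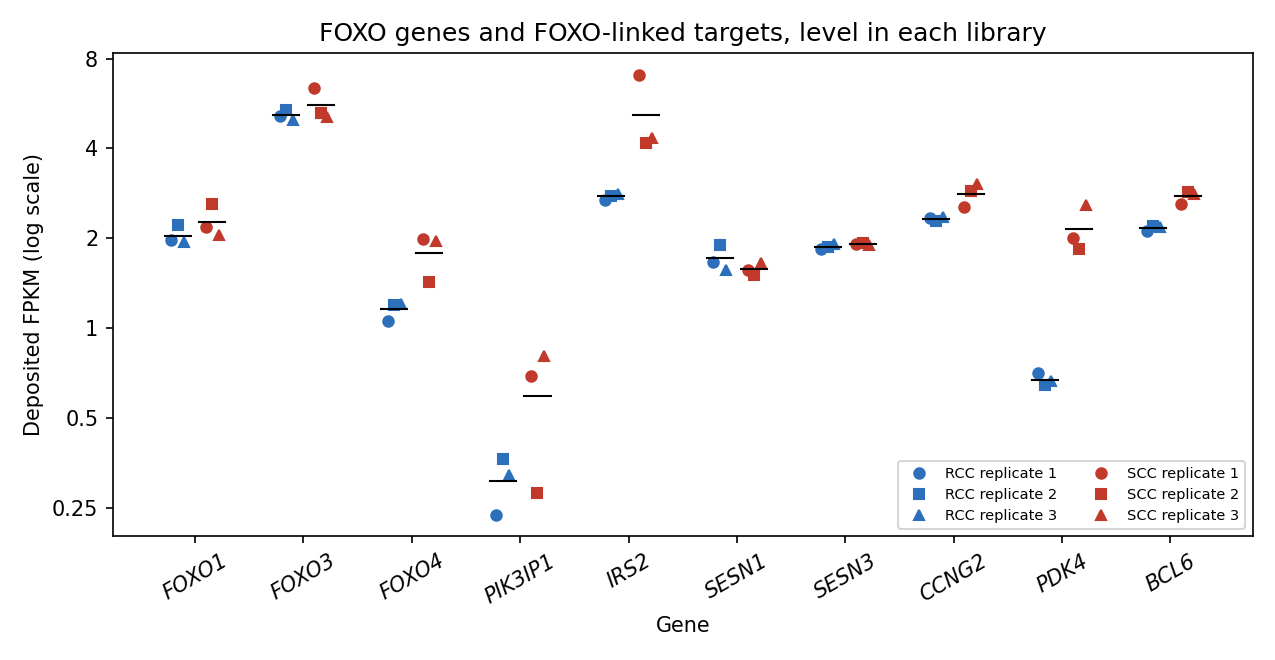
Deposited FPKM (log axis) of the 10 genes in each RCC (blue) and SCC (red) library, with replicates 1, 2 and 3 as circle, square and triangle and the group mean as a black line. PDK4, IRS2, FOXO4, CCNG2 and BCL6 have all SCC points above all RCC points, PIK3IP1 has SCC replicate 2 among the RCC points, and SESN3 lies between 1.84 and 1.93 in all 6 libraries.

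In the fit across all genes (edgeR's quasi-likelihood test, Benjamini-Hochberg adjusted p under 0.05), 2 of the 10 genes, PDK4 and IRS2, were past the threshold, both higher in SCC. Over all tested genes 2.07% were past it, 1.69% higher and 0.378% lower in SCC. With an offset for GC content 3 of the 10 genes, IRS2, CCNG2 and PDK4, were past it. The shares over all genes were then 3.29% higher and 1.54% lower. Because the genes were proposed from this contrast, nothing is read from either count. The fitted log2 fold change (SCC over RCC) was above 0 for 9 of the 10, against 50.5% of all tested genes, and its median was 0.32, against 0.00. In 5 of the 10 every SCC library exceeded every RCC library, which held for 14.4% of tested genes, and in 0 of the 10 was every SCC library below, which held for 13.4%. A sorted fraction is a mixture of cells, so a change in every cell and a change in the number of cells with high RNA cannot be told apart.

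Promoter sequence is shown for 3 of these genes, since PDK4 and IRS2 had the clearest difference and FOXO4 is the FOXO gene with the largest. Each is the 250 bases before a RefSeq transcription start on GRCh38.p14, read 5′ to 3′ on the gene's strand. Capitals mark matches on either strand to the FOXO core TAAACA, to the insulin response element letters CAAAACA, or to the AP-1 site TGANTCA, the factor named in the series title.
IRS2, chr13:109786584-109786833, minus strand: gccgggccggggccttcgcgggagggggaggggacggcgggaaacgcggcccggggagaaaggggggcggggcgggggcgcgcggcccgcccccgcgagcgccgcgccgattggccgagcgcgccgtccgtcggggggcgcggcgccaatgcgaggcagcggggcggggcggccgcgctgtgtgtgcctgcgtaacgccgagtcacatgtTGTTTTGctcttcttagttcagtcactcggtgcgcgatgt
PDK4, chr7:95596517-95596766, minus strand: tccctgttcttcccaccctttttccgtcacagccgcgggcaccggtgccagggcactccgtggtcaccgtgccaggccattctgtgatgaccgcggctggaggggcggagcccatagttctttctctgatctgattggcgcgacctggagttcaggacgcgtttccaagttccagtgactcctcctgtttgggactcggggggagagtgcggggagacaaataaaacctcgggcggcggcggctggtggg
FOXO4, chrX:71095601-71095850, plus strand: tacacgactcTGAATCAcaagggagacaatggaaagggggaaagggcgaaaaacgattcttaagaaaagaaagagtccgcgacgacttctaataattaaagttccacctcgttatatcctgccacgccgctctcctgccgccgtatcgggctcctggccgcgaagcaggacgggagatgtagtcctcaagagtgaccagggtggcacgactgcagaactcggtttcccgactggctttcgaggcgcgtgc

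The IRS2 window held 1 insulin response element match on the reverse strand, from -40 to -34 relative to the start, read as TGTTTTG. The FOXO4 window held 1 AP-1 match, TGAATCA, from -240 to -234, and the PDK4 window held no match to any of the motifs. The FOXO4 window ends at 71095850, so its RefSeq start lies upstream of the annotated gene start at 71096197. RefSeq lists 17 start windows for the 10 genes. The longer FOXO motif GTAAACA, which contains the core, was in 0 of the 17, and in 2.98% of all 35116 windows. The core TAAACA was in 1 of the 17 (FOXO3, one of its alternative starts) and in 11% of all, and CAAAACA in 1 of the 17 and 4.3% of all. AP-1 letters were in 3 of the 17 (BCL6, FOXO3 and FOXO4) and in 6.57% of all. For BCL6 and FOXO3 that window belonged to an alternative start inside the gene, and the window nearest the gene's start held no AP-1 match. With the 50 bases after each start included, GTAAACA was in 2 of the 17 windows (FOXO4 and PIK3IP1) and in 3.42% of all. These matches describe letters in short windows and say nothing about binding of a factor.

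FOXO1 (ENSG00000150907, chromosome 13, 40469953 to 40666597, minus strand of GRCh38) is the FOXO factor best known from insulin action. Its levels were 2.18, 2.60 and 2.05 FPKM in SCC replicates 1 to 3 and 1.97, 2.22 and 1.94 FPKM in RCC replicates 1 to 3. The groups overlapped, since RCC replicate 2 was above SCC replicates 1 and 3. FOXO1 had a fitted log2 fold change of 0.16 (standard error, SE, 0.12), or 0.04 without SCC replicate 2, its highest library.

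FOXO3 (ENSG00000118689, chromosome 6, 108559835 to 108684774, plus strand), a factor linked to cell cycle arrest and cell death, was at 6.40, 5.24 and 5.09 FPKM in SCC and 5.12, 5.37 and 5.00 FPKM in RCC. SCC replicate 1 alone lay above the RCC range, and SCC replicates 2 and 3 lay inside it. The log2 fold change of 0.12 (SE 0.10) was 0.00 (SE 0.07) without SCC replicate 1. The pseudogene FOXO3B, a processed copy on chromosome 17, had 19 to 70 counts per library against 693 to 1352 for FOXO3.

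FOXO4 (ENSG00000184481, chromosome X, 71096197 to 71103535, plus strand) was the least abundant of the 3. It was at 1.99, 1.43 and 1.96 FPKM in SCC and 1.06, 1.20 and 1.21 FPKM in RCC, so that all SCC libraries were above all RCC libraries, SCC replicate 2 by the least. The log2 fold change was 0.65 (SE 0.18), a 1.57-fold difference. It was 0.56 without SCC replicate 1 and 0.54 with an offset for GC content, which bears on it because the FOXO4 transcript has 56.0% G and C. Without SCC replicate 2 it was 0.77 (SE 0.17).

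Because all FPKM values are per gene length, the make-up of each family can be followed. FOXO3 gave 56.2% ± 2.83 of the summed FOXO1, FOXO3, FOXO4 and FOXO6 level in SCC and 59.4% ± 0.436 in RCC. The share of FOXO4 was 18.5%, 15.2% and 20.8% in SCC and 12.4%, 13.3% and 14.3% in RCC. FOXO1 gave 20.2%, 27.5% and 21.7% in SCC and 22.9%, 24.8% and 22.9% in RCC, which overlap. The sum itself was 9.44 to 10.8 FPKM in SCC and 8.47 to 8.97 FPKM in RCC. FOXO6, the remaining family member and outside the group of 10, had only 8 to 25 counts per library.

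By the root mean square difference of log2 CPM over the 6 libraries, each gene centred on its own mean, the protein-coding genes nearest to FOXO3 were TRAP1, NAXE and SEC14L2, at 0.016, 0.021 and 0.024. Nearest to FOXO1 were EPC1, KAT6B and CDK5, at 0.049, 0.051 and 0.053, and nearest to FOXO4 were CACFD1, SPAG4 and ADAMTSL5, at 0.051, 0.055 and 0.081. The median over the 10366 candidates was 0.168 for FOXO3, 0.186 for FOXO1 and 0.365 for FOXO4. Within the group of 10, SESN3 lay nearest to both FOXO1 (0.132) and FOXO3 (0.117), and BCL6 nearest to FOXO4 (0.235). SESN3 was nearly flat, with a log2 SD of 0.01 within SCC and 0.03 within RCC, so its nearness does not show a shared pattern. Candidates had a mean of at least 5 CPM, and all values come from the same 6 libraries.

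IRS2 (ENSG00000185950, chromosome 13, 109752698 to 109786568, minus strand) encodes an adaptor that couples the insulin and IGF1 receptors to PI3K. It was at 7.05, 4.18 and 4.34 FPKM in SCC and 2.69, 2.78 and 2.82 FPKM in RCC. The SCC libraries were all above the RCC libraries, and SCC replicate 1 was 1.71 times SCC replicate 2 on the CPM scale, whereas the RCC libraries were within 1.04 times of each other. IRS2 had a log2 fold change of 0.92 (SE 0.18), a 1.90-fold difference. Without SCC replicate 1 it was 0.63 (SE 0.08), and with the GC offset 0.76 (SE 0.11), the transcript having 58.7% G and C. Leaving out RCC replicate 1, 2 or 3 gave 0.90, 0.92 and 0.93. IRS2 stayed past the threshold whichever SCC library was left out, and lost its call whichever RCC library was left out. It also lost its call with limma on log2(FPKM + 1) or log2(FPKM + 0.1). PDK4 was past the threshold in each of these fits. With log2(FPKM + 1) without a filter neither gene was past it. Since both genes were proposed from this contrast, nothing is read from these calls.

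The paralog IRS1, outside the group, was more abundant and gave 73.2% to 78.5% of the summed IRS1, IRS2 and IRS4 FPKM in SCC and 85.1% to 85.6% in RCC. Its own log2 fold change of 0.10 (SE 0.09) did not pass the threshold (edgeR adjusted p 0.569), and it was -0.02 without SCC replicate 1. IRS2 gave 26.5%, 21.0% and 21.5% of that sum in SCC and 14.9%, 14.9% and 14.4% in RCC.

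PIK3IP1 (ENSG00000100100, chromosome 22, 31281593 to 31292534, minus strand) encodes a transmembrane protein that binds PI3K and inhibits it, and was the sparsest gene of the group, with 21 to 72 counts per library. Levels were 0.691, 0.281 and 0.808 FPKM in SCC and 0.238, 0.366 and 0.322 FPKM in RCC. SCC replicates 1 and 3 were above all RCC libraries, and SCC replicate 2 lay inside the RCC range. SCC replicate 2 had 1.07 CPM with an exact 95% Poisson interval of 0.665 to 1.64, which covers counting error only, and SCC replicate 3 had 3.08 CPM (2.38 to 3.93), so the gap between these replicates exceeds counting error. Its log2 fold change was 0.97 (SE 0.38). It was 1.28 without SCC replicate 2 and 0.69 without SCC replicate 3.

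PDK4 (ENSG00000004799, chromosome 7, 95583499 to 95596491, minus strand) encodes a mitochondrial kinase that inhibits the pyruvate dehydrogenase complex and so holds back the use of glucose carbon. It was at 2.01, 1.84 and 2.58 FPKM in SCC and 0.706, 0.648 and 0.665 FPKM in RCC. The lowest SCC library was well above the highest RCC library, and the RCC libraries were close together. PDK4 had a log2 fold change of 1.67 (SE 0.17), a 3.19-fold difference, higher than that of 99.6% of tested genes. In the 6 fits without 1 library it ranged from 1.51 to 1.76. With the GC offset it was 1.78, and on the compressed log2(FPKM + 1) scale 0.90.

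The other PDK genes, all outside the group, did not pass the threshold. PDK1, PDK2 and PDK3 had log2 fold changes of -0.01, 0.26 and -0.01, with edgeR adjusted p of 0.959, 0.422 and 0.973. The signs for PDK1 and PDK3 were positive with the GC offset, at 0.09 and 0.06, and PDK2 was then at 0.09. PDK2 was also at 0.11 without SCC replicate 1, 0.11 without RCC replicate 2 and 0.43 without RCC replicate 3. PDK4 made up 21.9%, 21.9% and 27.3% of the summed PDK level in SCC and 10.2%, 9.05% and 8.77% in RCC. The sum was 8.37 to 9.43 FPKM in SCC and 6.89 to 7.59 FPKM in RCC.

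**Figure D2:**
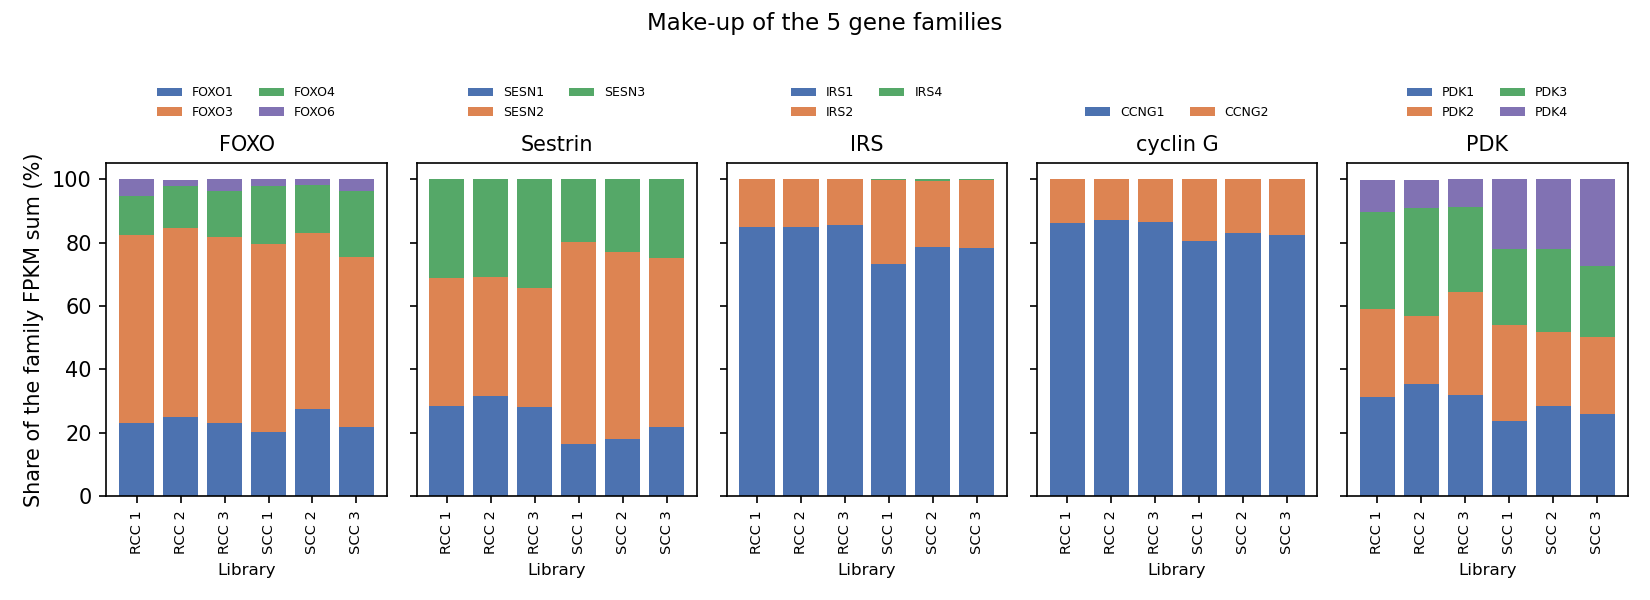
Share of each gene (%) in the summed FPKM of its family, for the FOXO, sestrin, IRS, cyclin G and PDK families, in each RCC and SCC library. The PDK4 share is 8.77% to 10.2% in RCC and 21.9% to 27.3% in SCC, and the SESN2 share is 37.5% to 40.4% in RCC and 53.1% to 63.8% in SCC.

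Sestrins are stress-induced proteins that restrain the growth kinase complex mTORC1. SESN1 (ENSG00000080546, chromosome 6, 108986437 to 109094819, minus strand) was at 1.57, 1.51 and 1.66 FPKM in SCC and 1.67, 1.90 and 1.57 FPKM in RCC. The groups overlapped, and SESN1 was the only gene of the 10 with a negative log2 fold change, -0.11 (SE 0.13), which ranged from -0.17 to -0.04 in the fits on counts. SESN3 (ENSG00000149212, chromosome 11, 95165513 to 95232541, minus strand) was at 1.91, 1.93 and 1.90 FPKM in SCC and 1.84, 1.87 and 1.91 FPKM in RCC. It was the steadiest gene of the group, with a log2 fold change of 0.04 (SE 0.09), or 0.19 (SE 0.09) with the GC offset, its transcript having 37.1% G and C.

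The third sestrin, SESN2, is outside the group and rose in SCC. It was at 6.13, 4.97 and 4.04 FPKM in SCC and 2.37, 2.26 and 2.08 FPKM in RCC, with no overlap. The log2 fold change was 1.18 (SE 0.16, edgeR adjusted p 0.00230), and it was 1.00 with the GC offset and also 1.00 without SCC replicate 1. The call was lost with limma on log2(FPKM + 1) without a filter (adjusted p 0.145). SESN2 gave 58.7% ± 5.33 of the summed sestrin level in SCC and 38.4% ± 1.65 in RCC, and the sum was 8.54 ± 1.01 against 5.82 ± 0.247 FPKM. Of the 12 genes of the GATOR and RAG complexes through which sestrins act on mTORC1, 0 passed edgeR's threshold and 0 passed DESeq2's. Over all tested genes 2.07% passed with edgeR and 4.09% with DESeq2. At an unadjusted edgeR p under 0.05, 2 of the 12 were SCC-high and 1 was SCC-low, against 11.4% and 8.27% of all genes. WDR24 had the smallest p of these, with a log2 fold change of 0.46 (SE 0.13, edgeR adjusted p 0.109), and it passed without SCC replicate 2 (0.0237) and with no filter beyond a single count (0.0198), whereas its log2 fold change was 0.21 with the GC offset (0.273) and 0.34 without SCC replicate 1 (0.0956).

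CCNG2 (ENSG00000138764, chromosome 4, 77157151 to 77433388, plus strand) encodes cyclin G2, an atypical cyclin associated with cell cycle exit. It was at 2.54, 2.89 and 3.05 FPKM in SCC and 2.34, 2.29 and 2.35 FPKM in RCC. The groups did not overlap, SCC replicate 1 being nearest to RCC. CCNG2 had a log2 fold change of 0.28 (SE 0.10), which was 0.37 with the GC offset and 0.35 without SCC replicate 1, the transcript having 40.8% G and C. The paralog CCNG1, outside the group, had a log2 fold change of -0.22 (SE 0.11, edgeR adjusted p 0.296), or -0.10 with the GC offset and -0.09 without SCC replicate 1, and gave 80.4% to 83.1% of the summed cyclin G level in SCC and 86.1% to 87.2% in RCC.

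BCL6 (ENSG00000113916, chromosome 3, 187721377 to 187745727, minus strand) encodes a zinc finger repressor of transcription first known from germinal centre B cells. It was at 2.60, 2.87 and 2.82 FPKM in SCC and 2.11, 2.20 and 2.19 FPKM in RCC. Both groups were tight and did not overlap. BCL6 had a log2 fold change of 0.36 (SE 0.10), a 1.28-fold difference, which ranged from 0.32 to 0.40 over the fits on counts. The antisense gene AC072022.2 at its start had 2 to 28 counts per library, against 234 to 422 for BCL6.

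**Figure D3:**
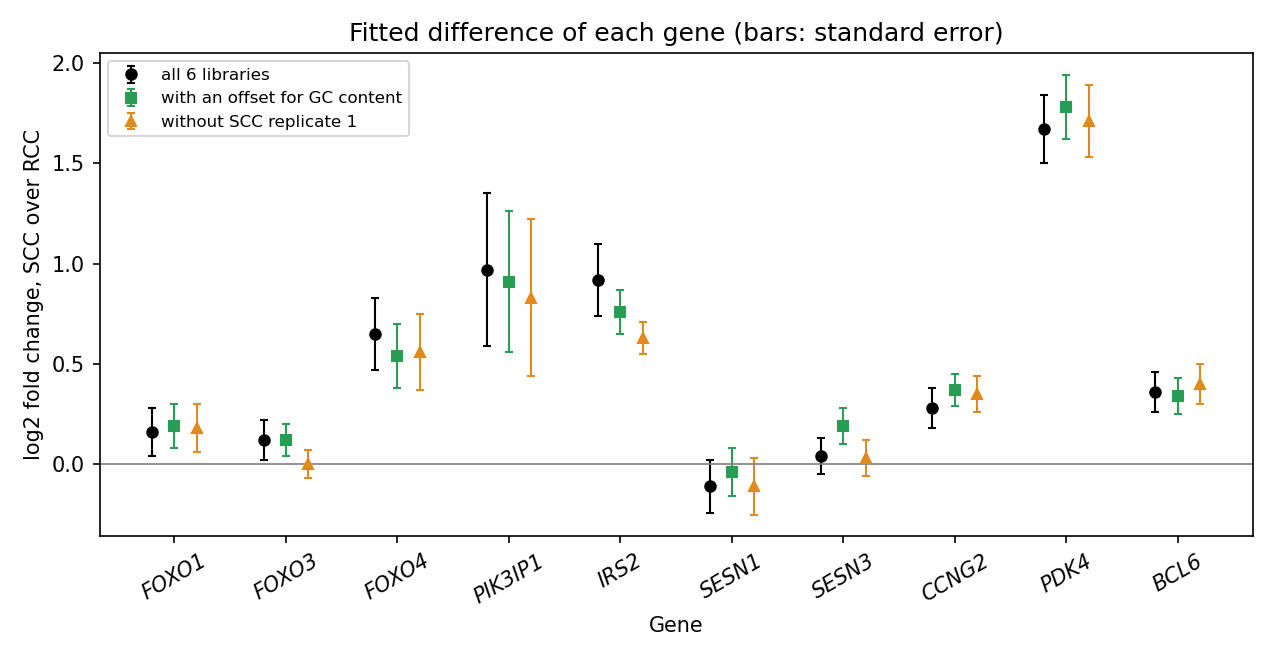
Fitted log2 fold change of SCC over RCC for the 10 genes (bars, standard error), from all 6 libraries (black circles), with an offset for GC content (green squares) and without SCC replicate 1 (orange triangles). PDK4 stays at 1.67 to 1.78, IRS2 moves from 0.92 to 0.63 without SCC replicate 1, and FOXO3 from 0.12 to 0.00.

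The wider pathway was followed through 6 lists holding 95 tested genes other than the group, of which 10 rose and 1 fell (edgeR adjusted p under 0.05). Their median log2 fold change was 0.06. The lists were chosen with earlier results of these libraries known, so their counts are not independent evidence of a direction. Of 35 other FOXO targets that were tested, 8 rose and 0 fell, with a median of 0.21, where 1.69% of all tested genes rose and 0.378% fell. DESeq2 called 9 SCC-high and 0 SCC-low, against 3.02% and 1.07% of all genes. At an unadjusted edgeR p under 0.05 the numbers were 15 and 1, against 11.4% and 8.27% of all genes. Those with the largest differences were TRIB1, a pseudokinase gene (1.31), FBXO32, which encodes the ubiquitin ligase atrogin-1 (1.07), GADD45A, a growth arrest and DNA damage gene (1.02), and TXNIP, an inhibitor of thioredoxin and glucose uptake (0.85). Their edgeR adjusted p were 2.8e-04, 0.00412, 3.0e-04 and 1.7e-04, and all SCC libraries were above all RCC libraries for each. From RCC to SCC, FBXO32 rose from 4.52 ± 0.422 to 9.50 ± 1.30 CPM and TRIB1 from 15.7 ± 2.29 to 38.9 ± 4.76 CPM. GADD45A rose from 26.4 ± 2.48 to 53.2 ± 4.60 CPM and TXNIP from 63.7 ± 1.84 to 115 ± 8.64 CPM. FBXO32 did not pass with limma on log2(FPKM + 1), where its adjusted p was 0.104.

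The other 4 that rose, named after their values were seen, were the kinase inhibitor gene CDKN1A (0.69), the autophagy genes GABARAPL1 (0.66) and MAP1LC3B (0.35), and CITED2 (0.46). Of these 4, CDKN1A alone kept its call in each fit without 1 library. GABARAPL1 lost it without RCC replicate 2 (edgeR adjusted p 0.0862) or 3 (0.0924). MAP1LC3B lost it without SCC replicate 2 (0.0557) or 3 (0.131) or RCC replicate 1 (0.218), 2 (0.130) or 3 (0.214). CITED2 lost it without SCC replicate 3 (0.0794) or RCC replicate 1 (0.198), 2 (0.161) or 3 (0.157). With limma on log2(FPKM + 1), MAP1LC3B (adjusted p 0.0938) and CITED2 (0.117) did not pass, and GABARAPL1 did not without the FPKM filter (0.145).

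**Figure D4:**
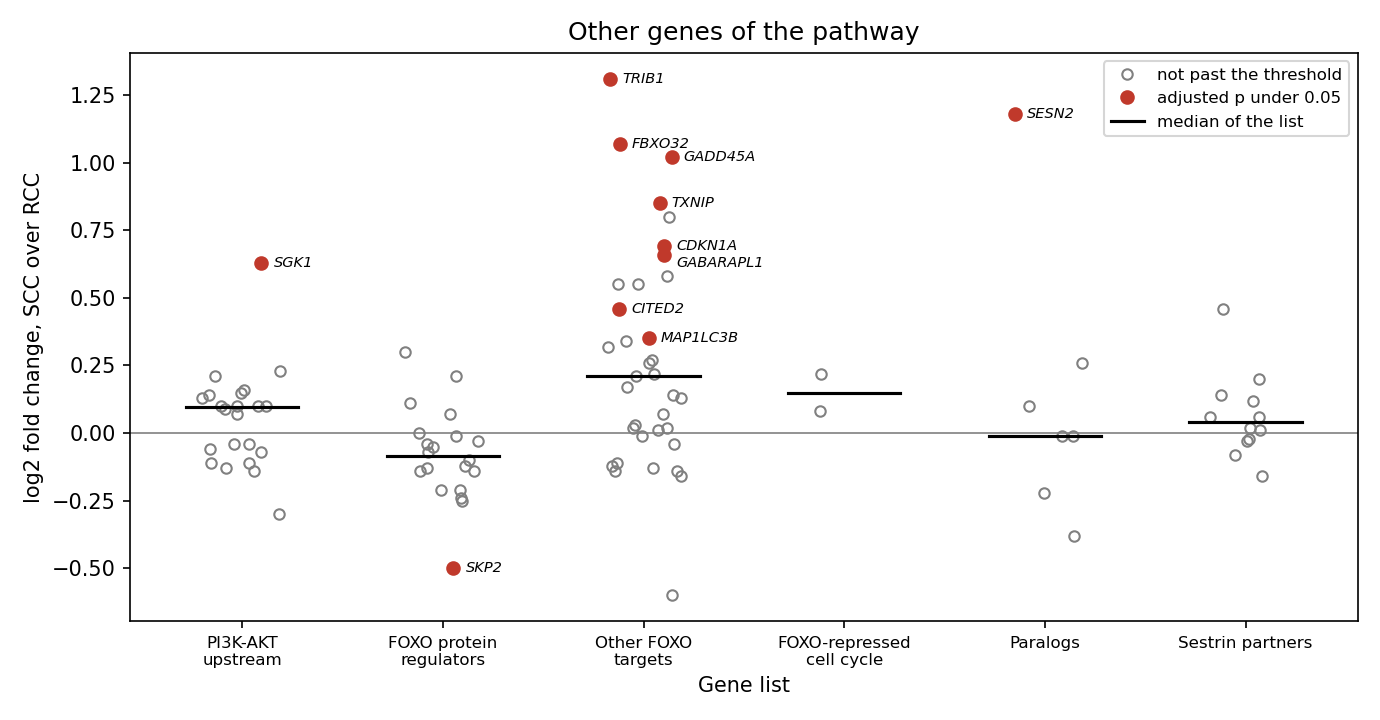
Fitted log2 fold change of SCC over RCC for the tested genes of the 6 pathway lists, 1 point per gene, filled red where the adjusted p was under 0.05, with the median of each list as a black line. The red points are the 10 genes that rose and SKP2, which fell; 8 of them are among the other FOXO targets.

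Upstream of FOXO, most genes did not pass the test, which also held for tested genes at large. Over all tested genes 1.69% rose and 0.378% fell with edgeR, and 3.02% and 1.07% with DESeq2. These shares stand beside the count of each list below. Of 22 tested genes from the receptors to AKT and mTORC2, 1 rose and 0 fell by both edgeR and DESeq2, with a median log2 fold change of 0.09. At an unadjusted edgeR p below 0.05, 1 was higher and 1 lower, against 11.4% and 8.27% of all genes. The gene that rose was SGK1, which encodes a kinase related to AKT that also phosphorylates FOXO proteins, from 27.2 ± 0.883 CPM in RCC to 42.1 ± 1.73 in SCC, a log2 fold change of 0.63 (SE 0.08, edgeR adjusted p 0.00174). The call was lost with limma on log2(FPKM + 1) without a filter (adjusted p 0.0924). Of 20 genes whose proteins bind or modify FOXO, 0 rose and 1 fell by both tools, with a median of -0.08. At an unadjusted edgeR p below 0.05, 1 was higher and 6 were lower, against 11.4% and 8.27% of all genes. The 6 were SKP2 and, named after their values were seen, PRKAA1, MAPK8, XPO1, YWHAQ and YWHAG. Their transcripts have 35.3% to 46.8% G and C, and each had its lowest CPM in SCC replicate 1, the library low for the genes poorest in G and C. Whether GC content bears on these differences was not tested, and a value with the GC offset is given below for SKP2 alone. SKP2, the ubiquitin ligase subunit that marks FOXO1 for degradation, fell from 77.4 ± 4.28 CPM in RCC to 54.6 ± 1.69 in SCC, a log2 fold change of -0.50 (SE 0.07, edgeR adjusted p 0.00510). With the GC offset the log2 fold change of SKP2 was -0.42 (SE 0.06, edgeR adjusted p 0.000459). SKP2 lost its call without RCC replicate 1 (0.0639) or 2 (0.0557), and with limma on log2(FPKM + 1) without a filter (0.0728). Of the cell cycle genes that FOXO factors repress, FOXM1 and CCND1 (the latter named after its values were seen) were tested and neither passed with edgeR or DESeq2, FOXM1 having the smaller p, with a log2 fold change of 0.22 (SE 0.08, edgeR adjusted p 0.200), or 0.12 with the GC offset and 0.11 without SCC replicate 1.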

How the data were processed

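The authors deposited a count table (whole reads assigned to each gene) and an FPKM table for the 6 libraries, made from TRIzol RNA with a NEBNext Ultra kit per the labels' protocols. HISAT2 2.0.5 and featureCounts 1.5.0-p3 are named, without roles, per the submitters' processing notes. RNA selection and use of strand are not given in the sources used here, so reads of overlapping genes cannot be told apart. All 58735 gene IDs and positions equalled GENCODE 29 (GRCh38).

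Genes were filtered with filterByExpr (minimum count 10), scaled by TMM and tested with edgeR 4.0.16 (glmQLFit, glmQLFTest, two-sided, Benjamini-Hochberg over 15881 genes, called at adjusted p under 0.05). CPM values use TMM-scaled totals, and each SE was taken from the log2 fold change and its F statistic. On simulated counts with 200 of 15881 genes changed 2-fold, edgeR recovered 198 with 6 false calls. The simulation gave every gene the same variability, changed only genes with higher counts and held no GC skew or outlying library. It therefore checks the code and does not measure accuracy on these libraries. Alternatives were DESeq2 1.42.0, limma 3.58.1 on log2(FPKM + 1) or log2(FPKM + 0.1) with FPKM of at least 1 in 3 libraries or no filter, other scalings and count filters, a replicate block, a GC offset (lowess, span 0.3, GC of the longest GENCODE transcript) and leaving out each library. Promoter windows came from RefSeq.

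The 10 genes and the 6 lists (PI3K-AKT pathway, FOXO protein regulators, other FOXO targets, cell cycle genes repressed by FOXO, paralogs, sestrin partners) were chosen with earlier results of these data known. Named genes were the 10, the tested paralogs and, per list, the 4 called genes with the largest change or, with none called, the gene with the smallest p. Other genes are named as markers, or said to have been named after their values were seen.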

Additional observations from a re-analysis of the deposited data

How the results depend on the processing

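Across 17 alternatives, 9 of the 10 genes (8 of 9 where PIK3IP1 was filtered out by FPKM) kept a log2 fold change above 0, and SESN1 stayed below 0. Since the 10 genes were chosen from this contrast, their number of calls supports nothing. It was 2, against 1.69% of all genes higher. With the GC offset it was 3 (3.29%), with no filter beyond 1 count 4 (2.65%), and with the GC offset and the replicate block 4 (4.02%). It was 1 with log2(FPKM + 1) (1.04%), 1 with log2(FPKM + 0.1) (0.938%) and 0 with log2(FPKM + 1) without a filter (0.128%). Without 1 library each it ranged from 1 to 4 (0.602% to 3.93%). Over all genes, 268 were higher and 60 lower, against 480 and 170 with DESeq2, 995 and 315 with that filter of 1 count, 522 and 244 with the GC offset, 638 and 447 with the GC offset and block, 130 and 36 with log2(FPKM + 1), 117 and 34 with log2(FPKM + 0.1), and 48 and 1 without the FPKM filter. Without 1 library each, 99 to 642 were higher and 8 to 343 lower. The other pathway genes called, 10 higher and 1 lower, were 4 and 0 with log2(FPKM + 1) without a filter, and 0 to 2 were lower without 1 library each. Deviations from the group means were hardly correlated between SCC and RCC libraries of the same replicate number, at -0.009, 0.025 and -0.079. These values cannot show whether such libraries were stained or sorted together. With the replicate block, 350 genes were higher and 106 lower. Log2 fold changes of paralogs changed sign for PDK1 with the GC offset (0.09), with the offset and block (0.09), and without SCC replicate 1 (0.03), RCC replicate 2 (0.03) or RCC replicate 3 (0.0015), for PDK3 with the offset (0.06), the offset and block (0.06), and without SCC replicate 3 (0.0012) or RCC replicate 2 (0.06), and for IRS1 without SCC replicate 1 (-0.02). Without 1 library each, IRS1 ranged from -0.02 to 0.14, PDK1 from -0.08 to 0.03 and PDK3 from -0.06 to 0.06. The cause of each change was not tested. Counts of 21 to 72 limit PIK3IP1, and fits without 1 library rest on fewer samples.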

Other observations

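Some relatives of the group fell below the count filter and are given as counts alone. The antisense gene PIK3IP1-AS1, which overlaps the start of PIK3IP1, had 4, 2 and 0 counts in SCC replicates 1 to 3 and 10, 11 and 3 in RCC. BCL6B, the paralog of BCL6, had 0, 0 and 1 counts in SCC and 9, 2 and 7 in RCC. IRS4, the remaining IRS gene, had 11, 8 and 1 counts in SCC and 0, 1 and 0 in RCC. The leukocyte gene PTPRC, which passed that filter, had 53, 5 and 15 counts in SCC and 4, 3 and 10 in RCC, so its high value was that of SCC replicate 1.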
